A study of Mus musculus with 35 samples.

Results

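The genes described here are 9 ligands of the CXC chemokine family in mouse, namely Cxcl1, Cxcl2, Cxcl3, Cxcl9, Cxcl10, Cxcl14, Cxcl16, Ppbp and Pf4. They were chosen by name, with earlier results of these data known, and were found by Ensembl identifier among the 53379 genes of the count table. RNA-seq libraries came from age-matched female C57BL/6 wild type mice with orthotopic pancreatic tumors of T110299, a cell line derived from the KPC mouse model, so that all tumors stem from the same line. Treated mice received 50 µg poly(I:C), a synthetic RNA duplex sensed as viral, complexed with in vivo-jetPEI (poly(I:C)c), intravenously on day 18 and day 20 after implantation. Controls are labelled untreated and described so by the study, although the treatment protocol in the labels names glucose, the vehicle, for them. Myeloid-derived suppressor cells (MDSC) were enriched for CD11b and sorted from spleen or tumor as Ly6C low Ly6G+ polymorphonuclear cells (PMN-MDSC) or Ly6C high Ly6G- monocytic cells (M-MDSC). Each of the 8 MDSC groups held 4 libraries, except spleen PMN-MDSC and tumor M-MDSC of treated mice with 3 each. Bulk tumor of untreated mice, lysed without dissociation or sorting, gave 4 more, which makes 34 libraries in 9 groups. By their titles the libraries come from 4 untreated and 4 treated mice, so that cell types and organs share mice, but the columns of the table name no mouse and all comparisons were unpaired.

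CXC chemokines are small secreted proteins that steer leukocytes through G protein-coupled receptors. Cxcl1, Cxcl2, Cxcl3 and Ppbp, which carry a glutamate-leucine-arginine motif ahead of their first cysteines, recruit neutrophils through Cxcr2. Cxcl9 and Cxcl10 are induced by interferons and recruit activated T and NK cells through Cxcr3. Cxcl16 is made as a membrane protein and binds Cxcr6, Cxcl14 is best known from epithelia, and Pf4 and Ppbp are classical products of platelets. In tumors, ligands of Cxcr2 are known for drawing in PMN-MDSC, and ligands of Cxcr3 for drawing in effector T cells.

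Of the 9 genes, 7 lie on chromosome 5 (GRCm38). Ppbp (90768518 to 90770063), Pf4 (90772435 to 90773383), Cxcl3 (90786103 to 90789600), Cxcl1 (90891241 to 90893115) and Cxcl2 (90903871 to 90905938) follow each other on the plus strand. Cxcl9 (92321347 to 92328079) and Cxcl10 (92346638 to 92348889) lie further along on the minus strand. Cxcl14 (56288643 to 56296551 on chromosome 13) and Cxcl16 (70453983 to 70459984 on chromosome 11) stand apart. Cxcl10 and Cxcl16 overlap Art3 and Zmynd15 on the opposite strand, and counting was by strand. Cxcl2 and Cxcl3 transcripts share 126 stretches of 50 bases, 5.84% of those of Cxcl2 and 3.51% of those of Cxcl3, where reads cannot be told apart.

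Promoters, found for 8 of the 9 genes, were searched on both strands for short motifs bound by interferon-induced and NF-kappaB factors. The windows shown are the kappaB matches, held by Cxcl1, Cxcl2, Cxcl3 and Cxcl10, and the interferon-type match that Cxcl10 held in addition. Each is 30 bases of the strand of the gene from the RefSeq promoter table (GRCm38.p6), 5′ to 3′, and capitals mark the motif.
Cxcl1 kappaB (chr5:90891164-90891193): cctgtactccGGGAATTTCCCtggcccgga
Cxcl2 kappaB (chr5:90903792-90903821): cctgagctcaGGGAATTTCCCtggtccccg
Cxcl3 kappaB (chr5:90786018-90786047): gagctgcgggGGGAATTTCCCcagcccggg
Cxcl10 ISRE core (chr5:92349083-92349112): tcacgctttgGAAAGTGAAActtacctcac
Cxcl10 upstream kappaB (chr5:92349029-92349058): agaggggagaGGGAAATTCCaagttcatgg
Cxcl10 downstream kappaB (chr5:92348973-92349002): cggtttacagGGGACTTCCCtcgggttgcg
Cxcl1, Cxcl2 and Cxcl3 held the same 11 letters, in which matches to the kappaB consensus on both strands overlap, beginning 71, 97 and 73 bases before the start. Cxcl10 held 2 kappaB matches, beginning 159 and 103 bases before its start, and the core of the interferon-stimulated response element (ISRE; GAAA, any 2 bases and GAAA again) 213 bases before it. Cxcl14 held the same core and a gamma-activated site, TTCNNNGAA. Of the 32851 promoters of 300 bases in the table, 3.44% held the ISRE core, 8.30% TTCNNNGAA and 4.51% the kappaB consensus. The start motif TATAAA was held by 13.6% of them and by Cxcl3, Cxcl9 and Ppbp. Cxcl9, Pf4 and Ppbp held none of the other 3 motifs in this window. These matches describe letters, and neither a match nor its absence says anything of binding.

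The MDSC libraries held 793070 to 4357105 counts and the bulk tumor libraries 3771590 to 8886115, so that 3 counts correspond to between 0.338 and 3.78 CPM (counts per 1000000 counts of a library). Values are given as CPM, and within a group the libraries always stand in the same order. The PMN-MDSC label was checked with 10 neutrophil markers, whose summed level was 22674 to 41100.0 CPM in untreated spleen PMN-MDSC and 1069 to 4521 CPM in untreated tumor PMN-MDSC. Ly6g, which encodes the antigen used for the sort, was at 34.5 to 84.7 CPM in the first group and 0 to 9.19 CPM in the second. The 8 macrophage markers summed to 9858 to 13417 CPM in untreated tumor PMN-MDSC, above the 3439.6 to 8414 CPM of untreated tumor M-MDSC. The tumor PMN-MDSC libraries are therefore named here by their sort and not as neutrophils.

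**Figure D1:**
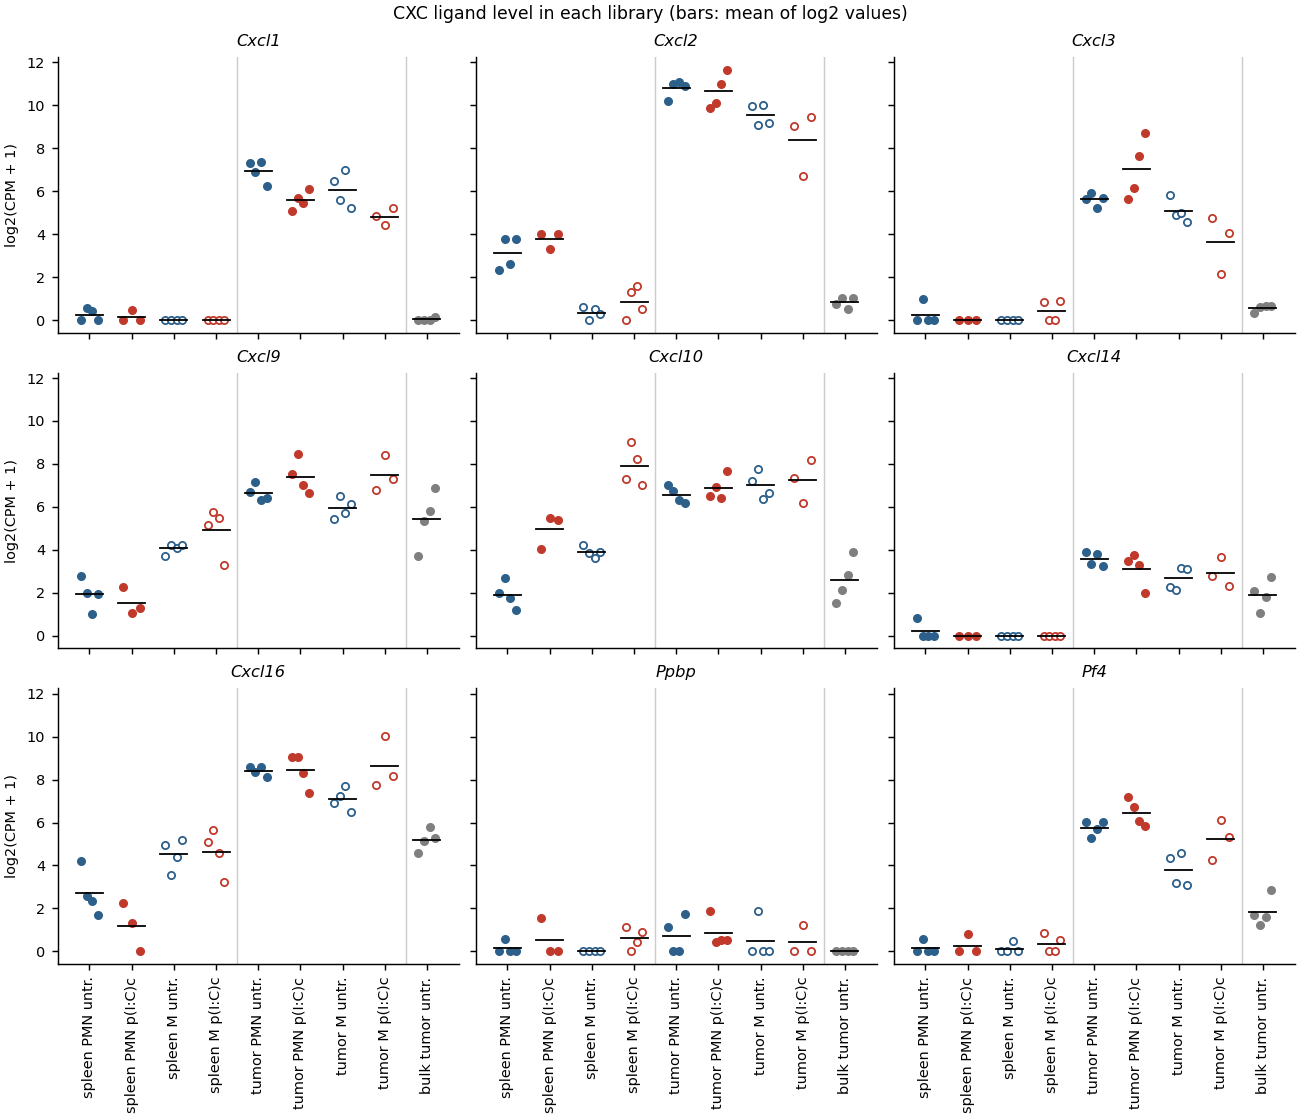
Level of each of the 9 CXC ligands in each of the 34 libraries, as log2(CPM + 1) on the vertical axis, by group (untr., untreated; p(I:C)c, poly(I:C)c). Filled points are PMN-MDSC or bulk tumor, open points M-MDSC, red points treated mice, and black bars the mean of the log2 values. Cxcl1, Cxcl2, Cxcl3 and Pf4 are high in tumor MDSC and low in spleen MDSC and bulk tumor, and Cxcl10 is also high in spleen M-MDSC of treated mice.

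Cxcl2 was the most abundant of the 9 transcripts per length in MDSC of untreated tumors, at 886 ± 220 FPKM (CPM per kilobase of summed exon length; SD, n = 4) in PMN-MDSC and 382 ± 127 FPKM in M-MDSC. In untreated tumor PMN-MDSC it was followed by Cxcl16 with 113 ± 16.3, Pf4 with 74.2 ± 17 and Cxcl1 with 68.7 ± 22.1 FPKM, and in tumor M-MDSC by Cxcl10 with 60.6 ± 26.6, Cxcl16 with 46.7 ± 16.6 and Cxcl1 with 39.5 ± 21.7 FPKM. Cxcl16 did not overlap Cxcl2 in either cell type, whereas Pf4 and Cxcl1 overlapped in PMN-MDSC, and Cxcl10, Cxcl16 and Cxcl1 overlapped each other in M-MDSC. In untreated spleen, the highest means were 4.21 ± 2.35 FPKM of Cxcl2 in PMN-MDSC and 7.92 ± 3.56 FPKM of Cxcl16 in M-MDSC. In untreated bulk tumor, Cxcl9 with 18.5 ± 14.8 FPKM and Cxcl16 with 12.4 ± 4.31 FPKM had the highest means. Their libraries overlapped, and without bulk library 4 the means were 11.7 FPKM for Cxcl9 and 12.3 FPKM for Cxcl16.

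**Figure D2:**
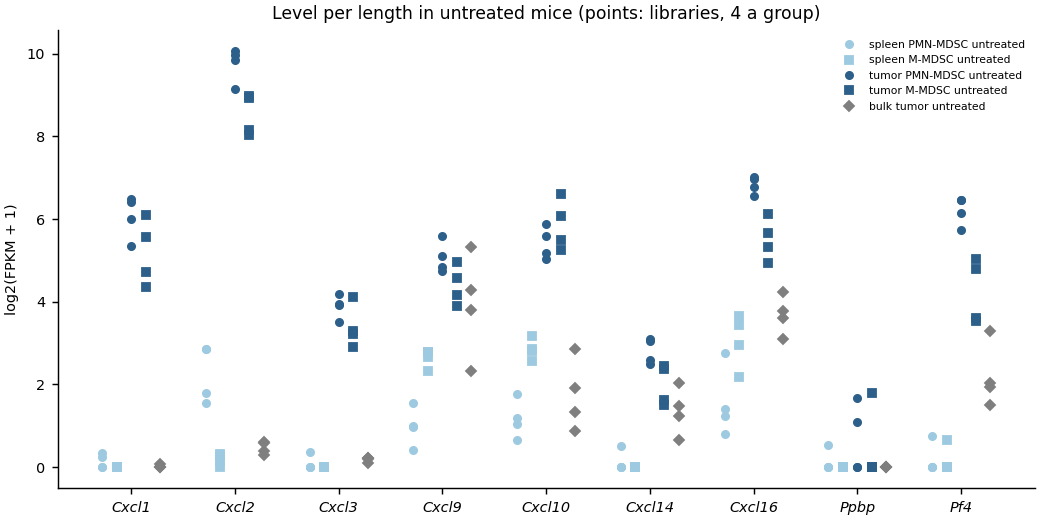
Level per summed exon length in untreated mice, as log2(FPKM + 1) on the vertical axis, for each of the 9 genes, with 1 point for each of the 4 libraries of a group. Tumor MDSC (dark) lie above spleen MDSC (light) for all genes but Ppbp, and Cxcl9 is the one of the other 8 for which bulk tumor (grey) comes closest to tumor MDSC.

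Cxcl1, Cxcl2 and Cxcl3, ligands of Cxcr2, were low or undetected in spleen MDSC and high in tumor MDSC. By the study, tumors were minced and dissociated with a kit, whereas spleens were strained and their red cells lysed. Organ and preparation therefore cannot be told apart in any comparison of tumor MDSC with spleen MDSC. Cxcl1, a main neutrophil attractant of mouse tissues, was at 0, 0.498, 0.339 and 0 CPM in untreated spleen PMN-MDSC and at 158, 118, 165 and 74.9 CPM in untreated tumor PMN-MDSC. In M-MDSC it had 0 counts in all 8 spleen libraries and stood at 86.9, 47.2, 126 and 36.6 CPM in untreated tumors. The compartments did not overlap in either cell type, with tumor higher, as for 29.9% (PMN-MDSC) and 10.1% (M-MDSC) of all genes tested. The ratio of the pooled counts per depth of tumor to spleen was 766 in PMN-MDSC (95% counting interval 211 to 6331, from 2 counts in spleen), and the mean CPM of Cxcl1 was at least 263-fold higher in tumor M-MDSC, set against 3 counts over the spleen group, or 202-fold without tumor library 3.

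Cxcl2 reached 1177, 2052, 2209 and 1890.3 CPM in untreated tumor PMN-MDSC, against 3.98, 12.9, 5.08 and 12.8 CPM in spleen PMN-MDSC. The difference was 7.59 ± 0.49 on the log2 scale (SE). In M-MDSC the values were 999.6, 541, 1032 and 585 CPM in tumor and 0.527, 0, 0.414 and 0.238 CPM in spleen, a ratio of pooled counts of 3142 (95% counting interval 1075 to 15239, from 3 counts in spleen). Spleen PMN-MDSC thus held a low level of Cxcl2 that M-MDSC of the same organ lacked or held near the limit of detection.

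Cxcl3, the close relative of Cxcl2, was at 49.1, 60.1, 36.4 and 50.3 CPM in untreated tumor PMN-MDSC and at 56.6, 29, 30.8 and 22.7 CPM in untreated tumor M-MDSC. In untreated spleen it had 2 counts in all PMN-MDSC libraries together and 0 in M-MDSC, so that its mean CPM was at least 124-fold higher in tumor M-MDSC, set against 3 counts over the spleen group. Ppbp, the platelet ligand of Cxcr2, had at most 10 counts in any library, was at 0 in 17 of 30 MDSC libraries and all 4 bulk tumor libraries, and was not tested.

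Among the genes outside the Cxcr2 group, Pf4 and Cxcl14 were also seen in tumor MDSC and hardly in spleen. Pf4 was at 63.1, 37.4, 50.4 and 63.1 CPM in untreated tumor PMN-MDSC, at 19.2, 8.09, 23 and 7.57 CPM in untreated tumor M-MDSC, and had at most 2 counts in any spleen library. The groups of tumor and spleen did not overlap. The summed level of 13 platelet and megakaryocyte markers went the other way, with 87.6 to 167 CPM in untreated spleen PMN-MDSC and 18.2 to 31.3 CPM in untreated tumor PMN-MDSC, where Gp1bb, Gp5 and Gp9 had no count. Cxcl14 was at 13.9, 9.21, 13.2 and 8.54 CPM in untreated tumor PMN-MDSC and 3.85, 3.37, 8.04 and 7.57 CPM in untreated tumor M-MDSC, whereas 14 of 15 spleen libraries held no count of it.

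Cxcl9, Cxcl10 and Cxcl16 were measurable in spleen MDSC too, and in untreated mice were higher in tumor. In untreated M-MDSC, Cxcl9 was at 12.1, 17.7, 16.1 and 17.9 CPM in spleen and 41.8, 91.0, 50.8 and 69.4 CPM in tumor, a log2 difference of 2.21 ± 0.25 (edgeR adjusted p = 5.2e-05). Cxcl10 was at 17.9, 13.5, 11.2 and 14 CPM in spleen and 149, 216, 82.9 and 98.4 CPM in tumor (3.53 ± 0.31, edgeR adjusted p = 6.3e-06). Cxcl16 was at 29.5, 10.7, 20.3 and 35.2 CPM in spleen and 118, 151, 206 and 89.5 CPM in tumor (2.81 ± 0.32, edgeR adjusted p = 6.5e-05). For each of the 3 genes the lowest tumor library exceeded the highest spleen library. In untreated PMN-MDSC the log2 differences of the 3 genes were 4.82 ± 0.39, 4.94 ± 0.39 and 5.40 ± 0.50.

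Testing required a mean of 25 counts over the libraries compared, and a gene that met it only through the group where it is high had to differ. In untreated PMN-MDSC the 7 genes tested all met it through their tumor libraries only, so that their calls do not count as a result about the 9 genes. In untreated M-MDSC, Cxcl9, Cxcl10 and Cxcl16 met it in both compartments and Cxcl1, Cxcl2 and Cxcl3 in tumor only, and 15.7% of all genes tested were called higher in tumor. In treated PMN-MDSC, Cxcl2 (6.76 ± 0.67, edgeR adjusted p = 1.6e-04) and Cxcl10 (1.48 ± 0.47, edgeR adjusted p = 0.026) met it in both compartments, against a background of 28.2% called higher. The call of Cxcl10 was lost without spleen library 1 or 3 of the treated mice (edgeR adjusted p up to 0.060). The call of Cxcl3 in treated PMN-MDSC, at 0 counts in the spleen, was lost without the count filter (edgeR adjusted p = 0.086). In treated M-MDSC, where 5.11% of all genes were called higher, the difference of Cxcl9 (2.57 ± 0.58, edgeR adjusted p = 0.041) was lost without spleen library 1, 2 or 3 or tumor library 2 or 3 (edgeR adjusted p up to 0.14), and that of Cxcl16 (4.22 ± 0.72, edgeR adjusted p = 0.014) without spleen library 1 or 3 (edgeR adjusted p up to 0.063). Both calls were also lost without the count filter (edgeR adjusted p = 0.15 and 0.070). A call means an adjusted p under 0.05 here. A list of 11 immediate early and heat shock genes, compiled after these values had been seen, moved with the compartment, with a summed level of 396 to 3417 CPM in untreated spleen MDSC and 9776 to 13500.0 CPM in untreated tumor MDSC. Of 13 lists, this and 12 of cell type markers, 10 did not overlap between untreated tumor and spleen in PMN-MDSC and 9 in M-MDSC. Macrophage, monocyte, tumor epithelium and acinar lists were higher in tumor in both. Neutrophil, platelet and megakaryocyte, B cell and erythroid lists were lower in tumor in both. In treated mice, 9 lists did not overlap between tumor and spleen in PMN-MDSC and 7 in M-MDSC. The part of these lists in the differences was not tested, and in sorted populations as in bulk tumor, fewer cells of a type and less RNA per cell cannot be told apart.

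Cxcl10 rose with poly(I:C)c in spleen M-MDSC and had higher values in treated spleen PMN-MDSC, and no rise was called in the tumor. In spleen PMN-MDSC, Cxcl10 went from 2.92, 5.48, 2.37 and 1.28 CPM in untreated mice to 15.4, 43.8 and 41 CPM in treated mice. In spleen M-MDSC it went from 17.9, 13.5, 11.2 and 14 to 159, 513, 299 and 127 CPM. Every treated library exceeded every untreated library in both cell types, as for 6.25% and 10.4% of all genes tested. The log2 fold changes were 3.82 ± 0.54 in PMN-MDSC and 4.36 ± 0.48 in M-MDSC (edgeR adjusted p = 4.8e-04 in M-MDSC), and the range when 1 library was left out was 3.53 to 4.25 and 3.84 to 4.64. Of all tested genes, 6.1% and 10.7% were called higher in these comparisons. In spleen M-MDSC, Cxcl10 met the count minimum in both groups. In spleen PMN-MDSC it met it through the treated libraries only (33 counts over 4 untreated libraries), so that its call there is given no weight.

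In the tumor, Cxcl10 stood at 130.4, 106, 79.9 and 71.1 CPM in untreated PMN-MDSC and 90.9, 122, 83.9 and 205 CPM in treated PMN-MDSC. In tumor M-MDSC it was at 149, 216, 82.9 and 98.4 CPM without and 161, 72.3 and 294 CPM with treatment. Both pairs of groups overlapped, and the log2 changes of 0.38 ± 0.33 (edgeR adjusted p = 0.60) and 0.27 ± 0.48 (edgeR adjusted p = 0.81) did not pass. The treatment effect in tumor minus that in spleen was -3.46 ± 0.64 in PMN-MDSC (edgeR adjusted p = 0.011) and -4.08 ± 0.74 in M-MDSC (edgeR adjusted p = 0.030), calls in a direction taken by 0.336% and 0.561% of the genes tested. The PMN-MDSC difference rests on the same 33 counts of untreated spleen libraries, so that its call is given no weight either. The call in M-MDSC was lost on leaving out any of 6 of the 15 libraries (untreated spleen 2, 3 or 4, treated spleen 3, untreated tumor 1 or 2), with edgeR adjusted p up to 0.074. Without the count filter Cxcl2, Cxcl3 and Cxcl16 also passed this test in M-MDSC (edgeR adjusted p = 0.0057, 0.042 and 9.1e-04). After treatment, the mean of Cxcl10 in spleen M-MDSC, 274 CPM, was the highest of the 9 groups and overlapped that of tumor M-MDSC, 176 CPM (log2 difference of tumor to spleen -0.59 ± 0.60, edgeR adjusted p = 0.59).

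The pathways known to induce these ligands (interferon and NF-kappaB signalling, with Tnf, Il1a, Il1b and Il6) were followed with 20 listed genes, and both organs held called ones. Irf7, an interferon-induced activator of interferon genes, rose in spleen PMN-MDSC (2.75 ± 0.31), spleen M-MDSC (2.95 ± 0.24), tumor PMN-MDSC (3.88 ± 0.26) and tumor M-MDSC (3.01 ± 0.28), with adjusted p of 0.0028, 7.0e-05, 9.6e-05 and 0.0022 in edgeR. Of the listed genes tested, 3 of 18 rose in spleen PMN-MDSC (6.1% of all genes rose and 5.52% fell) and 6 of 18 rose and 1 fell in spleen M-MDSC (10.7% and 8.96%). In tumor PMN-MDSC 3 of 20 rose and 1 fell (2.29% and 1.07%), and in tumor M-MDSC 1 of 20 rose and 1 fell (1.82% and 1.06%). The medians of the list were 0.24, 0.34, -0.10 and -0.18, beside 0.014, -0.012, 0.0063 and -0.00054 over all genes tested. Stat2 rose in 3 of these comparisons and Nfkbia, the inhibitor induced by NF-kappaB, in both of the spleen. Il6 fell in tumor PMN-MDSC (-2.07 ± 0.48, adjusted p = 0.044) and Il1b in tumor M-MDSC (-2.15 ± 0.30, adjusted p = 0.011). Of the 13 lists, 7 did not overlap between treated and untreated spleen PMN-MDSC, all lower with treatment, and 5 in spleen M-MDSC. Macrophage markers were lower, at 68.8 to 181 CPM against 433 to 1381 CPM in PMN-MDSC and at 336 to 720.5 CPM against 817 to 1059.5 CPM in M-MDSC. The 5 endothelial markers summed to 24.8 to 34.8 CPM in untreated spleen M-MDSC and to 129, 293, 190.4 and 130.5 CPM in treated spleen M-MDSC, where the libraries with the most of them also held the most Cxcl10. Most of this sum was Kdr (85.8 to 272 CPM), while Emcn and Tek had no count there and Cdh5 was at 0.394 to 5.31 CPM. In spleen PMN-MDSC the list was at 25.1 to 67.9 CPM without and 9.61 to 15.2 CPM with treatment. Erythroid markers were at 59.3 to 175 CPM without and 0.360 to 7.04 CPM with treatment in PMN-MDSC, and at 28.3 to 60.5 and 0.675 to 3.16 CPM in M-MDSC. Dendritic cell markers in spleen PMN-MDSC were at 26.1 to 75.6 CPM without and 1.44 to 4.46 CPM with treatment, and monocyte markers in spleen M-MDSC at 6541 to 9490.0 and 3562 to 4932 CPM. The other lists without overlap were those of tumor epithelium, T and NK cells and B cells in PMN-MDSC, lower with treatment, and of fibroblasts in M-MDSC, higher at 5.52 to 9.12 CPM. The part of these lists in the rise of Cxcl10 was not tested.

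**Figure D3:**
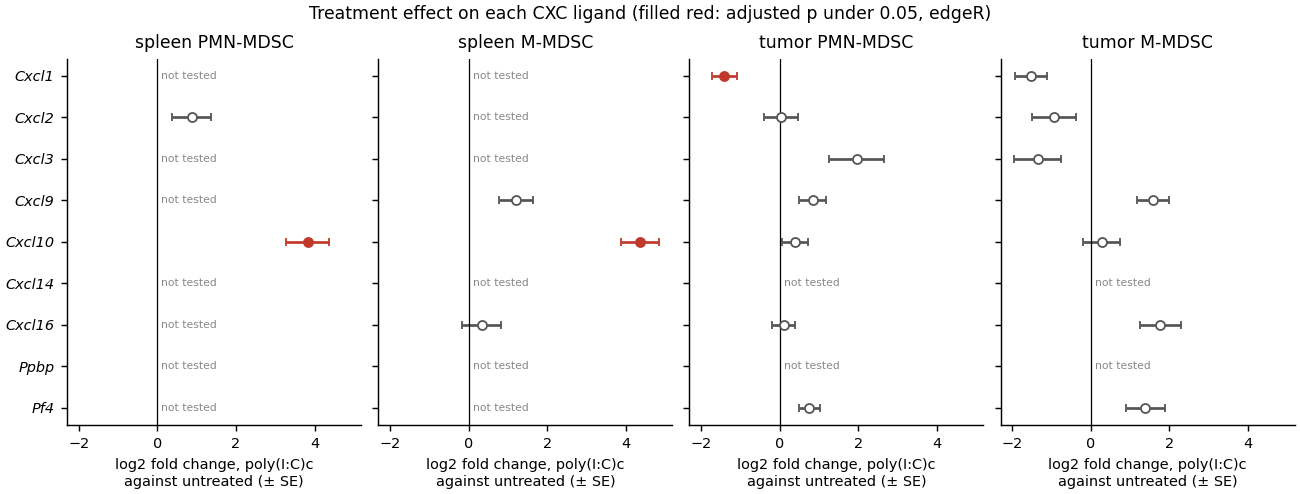
Log2 fold change of each gene between treated and untreated mice in the 4 sorted populations, with bars of ± 1 SE. Filled red points passed an adjusted p of 0.05 in edgeR, and genes under the count minimum are marked as not tested. Cxcl10 is the called gene in both spleen panels (3.82 and 4.36), in PMN-MDSC with too few untreated counts for the call to carry weight, and Cxcl1 the called gene in tumor PMN-MDSC (-1.41).

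Cxcl1 fell with treatment in tumor PMN-MDSC, and its difference in tumor M-MDSC, of the same direction, did not pass the test. In tumor PMN-MDSC it was at 158, 118, 165 and 74.9 CPM without treatment and 33.4, 49.8, 42.4 and 68.9 CPM with treatment, and in tumor M-MDSC at 86.9, 47.2, 126 and 36.6 against 27.4, 20.7 and 35.7 CPM. No treated library reached the lowest untreated library in either cell type, as for 4.07% of the genes tested in PMN-MDSC and 7.05% in M-MDSC. The gap in PMN-MDSC rests on 1 treated library at 68.9 CPM, which after TMM scaling lay at 76.6 CPM, above the lowest untreated value of 73.0 CPM. The log2 fold change was -1.41 ± 0.31 in PMN-MDSC (edgeR adjusted p = 0.034), a fall shared by 1.07% of the genes tested. In M-MDSC it was -1.52 ± 0.41, which did not pass (edgeR adjusted p = 0.077), though it passed in DESeq2 (adjusted p = 0.0098), without the count filter (6.4e-06) and in a fit over all groups (0.012). Leaving out any of the 8 PMN-MDSC libraries but untreated library 4, the lowest, and treated library 4, the highest, raised the adjusted p to between 0.054 and 0.11, with log2 changes of -1.70 to -1.24 over all 8. The summed level of 8 monocyte markers was 4664 to 9221 CPM in untreated and 1758 to 3711 CPM in treated tumor PMN-MDSC, and dendritic cell markers were at 21.6 to 37.0 and 2.58 to 12.8 CPM. In tumor M-MDSC, monocyte markers (9752 to 13267 and 3523 to 5792 CPM), dendritic cell markers (14.4 to 32.4 and 4.63 to 10.1 CPM) and the immediate early and heat shock list (11437 to 12916 and 8193 to 10273 CPM) were lower with treatment without overlap, and endothelial markers higher (20.2 to 42.5 and 74.6 to 158 CPM). The part of these lists in the differences of Cxcl1 was not tested.

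For Cxcl2 and Cxcl3, the other ligands of Cxcr2 with counts enough for the test, no change was called. In treated tumor PMN-MDSC, Cxcl2 was at 925, 1103, 2067 and 3245 CPM, on both sides of the untreated libraries, with a log2 change of 0.03 ± 0.42 (edgeR adjusted p = 0.98). Cxcl3 was at 48.2, 70.7, 196 and 417 CPM in the same libraries against 36.4 to 60.1 CPM without treatment, a log2 change of 1.95 ± 0.70 (edgeR adjusted p = 0.19). Without treated library 4 it was 1.03, and in a fit over all groups it passed (edgeR adjusted p = 0.042). Its 2 highest libraries were also the 2 highest for Cxcl2 and for Cxcr2, the receptor of both, whose level was 207, 245, 539.6 and 594 CPM. Cxcr2 is also among the 10 neutrophil markers, whose sum in tumor PMN-MDSC was 1069 to 4521 CPM without and 4091 to 10333 CPM with treatment. The part of this list in the values of Cxcl2 and Cxcl3 was not tested. In treated tumor M-MDSC, Cxcl3 was at 26.1, 3.44 and 15.5 CPM and Cxcl2 at 519, 103 and 695 CPM, with log2 changes of -1.35 ± 0.60 and -0.93 ± 0.56 (edgeR adjusted p = 0.26 and 0.41), and Cxcl3 passed there without the count filter (edgeR adjusted p = 0.0042). That the direction of Cxcl3 differs between the cell types was not tested.

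Cxcl9, Cxcl16 and Pf4 had higher means in treated tumors without reaching the threshold. In tumor M-MDSC, Cxcl9 went from 41.8, 91.0, 50.8 and 69.4 to 108, 337 and 159 CPM (1.59 ± 0.40, edgeR adjusted p = 0.069) and Cxcl16 from 118, 151, 206 and 89.5 to 217, 1039 and 282 CPM (1.76 ± 0.52, edgeR adjusted p = 0.11). Treated and untreated libraries did not overlap for either gene, as for 12.8% of all genes tested. Without treated library 1, the lowest for both, Cxcl9 and Cxcl16 passed (edgeR adjusted p = 0.027 and 0.039). Pf4 was at 18.1, 69.1 and 39.1 CPM in the same treated libraries and overlapped the untreated ones (1.38 ± 0.49, edgeR adjusted p = 0.16). In tumor M-MDSC, 0 of the 7 genes tested were called at a background of 2.88%, while 4 had an unadjusted p under 0.05 and DESeq2 called 3 (Cxcl1, Cxcl9 and Cxcl16). The fit over all groups called these and Pf4, and edgeR without the count filter called these, Pf4 and Cxcl3. In tumor PMN-MDSC, Cxcl9 was at 101, 143, 77.9 and 83.9 CPM without and 182, 347, 128 and 99.1 CPM with treatment, and Pf4 at 145, 104, 66.6 and 56.8 CPM with treatment. Both overlapped their untreated libraries in CPM. After TMM scaling Pf4 did not, at 63.2 to 135 CPM with and 35.8 to 61.4 CPM without treatment (7.64% of all genes tested were higher without overlap in CPM). The log2 changes of Cxcl9, Cxcl16 and Pf4 there were 0.84 ± 0.34, 0.10 ± 0.29 and 0.75 ± 0.26, with adjusted p of 0.23, 0.89 and 0.16 in edgeR, and Cxcl9 and Pf4 passed without the count filter (edgeR adjusted p = 0.0019 and 0.013). In spleen M-MDSC, Cxcl9 was at 34.3, 53.3, 43.9 and 8.85 CPM after treatment (1.21 ± 0.43, edgeR adjusted p = 0.081, or 0.032 in DESeq2), and leaving out its lowest treated library gave 1.56 and an adjusted p of 0.0010 in edgeR. Cxcl16 in spleen M-MDSC, at 33.5, 49.2, 23 and 8.40 CPM with treatment, and Cxcl2 in spleen PMN-MDSC, at 15.4, 8.91 and 15.1 CPM, overlapped their untreated libraries (0.33 ± 0.49 and 0.88 ± 0.50, edgeR adjusted p = 0.67 and 0.30).

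In treated tumors, libraries with more macrophage markers held more Cxcl16. The treated tumor M-MDSC library with 1039 CPM of Cxcl16 and 337 CPM of Cxcl9 held 28928 CPM of macrophage markers, the most of all, and the other two held 5299.6 and 11052 CPM, against 3439.6 to 8414 CPM without treatment. In treated tumor PMN-MDSC, macrophage markers were 17862, 18799, 12177 and 7414 CPM and Cxcl16 was 522, 534, 313 and 163 CPM, in the same order of libraries. In untreated tumor PMN-MDSC the order differed, with macrophage markers at 11695, 9858, 13417 and 12328 CPM, Cxcl16 at 386, 326, 377 and 280.3 CPM and Cxcl9 lowest where the markers were highest. Cxcl1 was at 20.7 CPM, its lowest tumor value, in the library with the most macrophage markers. In both untreated groups, however, it was highest in the library with the most of these markers (165 CPM at 13417 CPM in PMN-MDSC and 126 CPM at 8414 CPM in M-MDSC). Without the M-MDSC library at 28928 CPM the log2 changes of Cxcl9 and Cxcl16 were 1.02 and 0.74, the lowest over the 7 libraries left out in turn. The part of these markers in the changes was not tested.

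**Figure D4:**
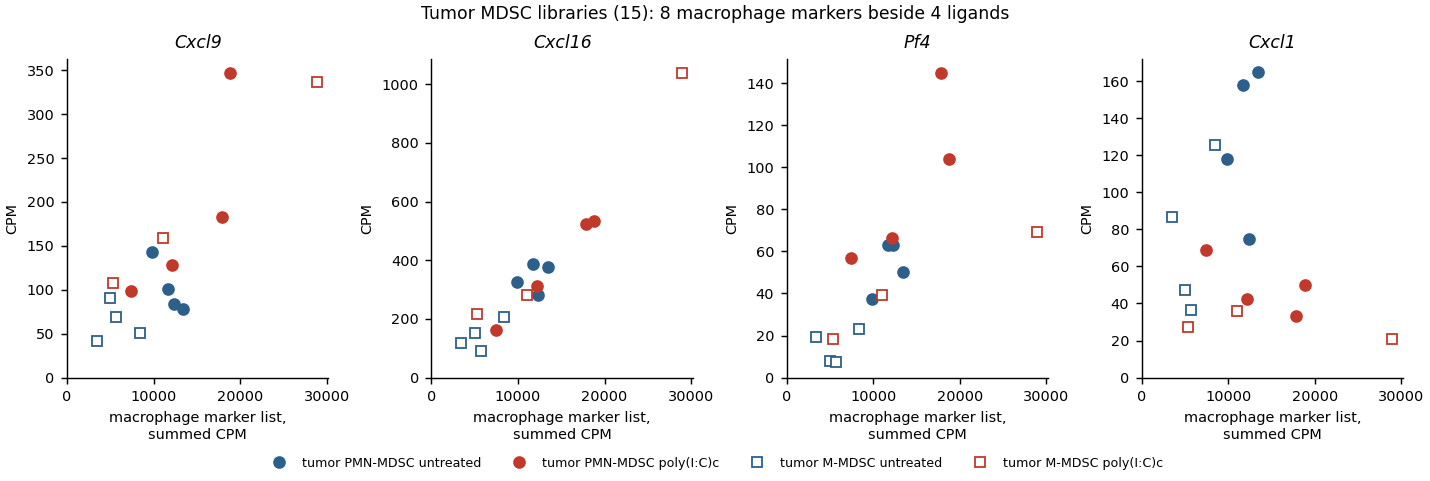
CPM of Cxcl9, Cxcl16, Pf4 and Cxcl1 (vertical axes) against the summed CPM of 8 macrophage markers (horizontal axes) in the 15 tumor MDSC libraries. Filled circles are PMN-MDSC, open squares M-MDSC, blue untreated and red treated mice. The library with 28928 CPM of markers has the highest Cxcl16 (1039 CPM) and the lowest Cxcl1 (20.7 CPM), while the untreated library with the most markers (13417 CPM) has the highest Cxcl1 (165 CPM).

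Between the sorted populations of treated spleen, Cxcl10 was lower in PMN-MDSC than in M-MDSC. In treated spleen, Cxcl10 was at 15.4 to 43.8 CPM in PMN-MDSC and 127 to 513 CPM in M-MDSC (log2 difference -2.45 ± 0.60, edgeR adjusted p = 0.0085), a direction called for 32.4% of all genes. Without the count filter it did not pass (edgeR adjusted p = 0.062). Cxcl9 and Cxcl16 met the count minimum through M-MDSC only, so that their tests are given no weight. In untreated spleen, Cxcl9 was at 5.84, 2.99, 1.02 and 2.89 CPM in PMN-MDSC and 12.1 to 17.9 CPM in M-MDSC (-1.91 ± 0.38), without overlap, while Cxcl16 overlapped (-1.32 ± 0.56) and Cxcl10 was not tested. In treated spleen, Cxcl9 had 13 and Cxcl16 10 counts over the 3 PMN-MDSC libraries, and their log2 differences were -3.60 ± 0.73 and -3.62 ± 0.94. The cell types did not overlap there for any of the 3 genes, and of all genes tested 44.7% were lower in PMN-MDSC without overlap in untreated and 47.6% in treated spleen. Of the 13 lists, 5 did not overlap in untreated and 7 in treated spleen. In treated spleen PMN-MDSC, monocyte (789 to 1205 against 3562 to 4932 CPM), macrophage (68.8 to 181 against 336 to 720.5 CPM), dendritic cell (1.44 to 4.46 against 16.5 to 39.3 CPM) and endothelial markers (9.61 to 15.2 against 129 to 293 CPM) were lower. In untreated spleen, monocyte markers were lower in PMN-MDSC (748 to 2255 against 6541 to 9490.0 CPM). Neutrophil, platelet and immediate early lists were higher in PMN-MDSC in both. The part of these lists in the differences was not tested.

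In untreated tumor, 3 of the genes were higher in PMN-MDSC. Cxcl2 (1.26 ± 0.25), Cxcl16 (1.31 ± 0.21) and Pf4 (1.81 ± 0.31) were higher in PMN-MDSC than in M-MDSC, with adjusted p of 0.0061, 0.0014 and 0.0024 in edgeR and no overlap, 3 of 7 tested at a background of 7.25% for calls and 8.88% for libraries that do not overlap. In a fit over all groups Cxcl2 and Cxcl16 lost their calls (edgeR adjusted p = 0.078 and 0.093). Of the 13 lists, 4 did not overlap in this comparison. Macrophage markers were higher in PMN-MDSC (9858 to 13417 against 3439.6 to 8414 CPM), as were neutrophil (1069 to 4521 against 247 to 788 CPM) and endothelial markers (47.9 to 66.6 against 20.2 to 42.5 CPM), while monocyte markers were lower (4664 to 9221 against 9752 to 13267 CPM). Their part in the differences was not tested. Cxcl1, Cxcl3, Cxcl9 and Cxcl10 overlapped and did not pass (log2 differences 0.80, 0.51, 0.75 and -0.45), though Cxcl1, Cxcl3 and Cxcl9 passed without M-MDSC library 3, 1 or 2, respectively (edgeR adjusted p up to 0.044), and Cxcl1 and Cxcl9 without the count filter (0.017 and 0.016). In treated tumor, 0 of 8 tested genes were called at a background of 0.38%, where 4 had an unadjusted p under 0.05 and DESeq2 called 2, Cxcl2 and Cxcl3. These were also the genes whose PMN-MDSC and M-MDSC libraries did not overlap there (background 7.39%), with log2 differences of 2.22 ± 0.74 and 3.83 ± 1.01 (edgeR adjusted p = 0.30 and 0.22), and both passed in the fit over all groups (0.0060 and 6.6e-04). Pf4 passed without the count filter (0.0012). Of the 13 lists, 2 did not overlap in treated tumor, both higher in PMN-MDSC. These were neutrophil markers (4091 to 10333 against 203 to 1057 CPM) and erythroid markers (0.431 to 1.02 against 0 CPM). The part of these 2 lists was not tested.

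Bulk tumor of untreated mice held little Cxcl1, Cxcl2 and Cxcl3, which were high in sorted tumor MDSC. Cxcl1 had 0, 0, 0 and 1 counts in the 4 bulk libraries, and the ratio of untreated tumor PMN-MDSC to bulk tumor, from pooled counts, was 3744 (95% counting interval 671 to 148031). Cxcl2 was at 0.661, 1.06, 0.450 and 1.03 CPM in bulk tumor, -11.47 ± 0.38 on the log2 scale relative to tumor PMN-MDSC and -10.15 ± 0.41 relative to tumor M-MDSC. Cxcl3 was at 0.264 to 0.572 CPM (-6.89 ± 0.31 and -6.31 ± 0.41). No bulk library came near a sorted tumor library for these 3 genes.

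Cxcl10 was at 1.85, 3.45, 6.19 and 14 CPM in bulk tumor, Cxcl16 at 22.9, 33.9, 54.2 and 38.3 CPM and Pf4 at 2.25, 1.33, 2.03 and 6.30 CPM, each below all untreated tumor MDSC libraries, as for 25.3% of all genes tested against PMN-MDSC and 24.7% against M-MDSC. Relative to tumor PMN-MDSC the log2 differences were -4.18 ± 0.52, -3.50 ± 0.24 and -4.38 ± 0.40. Cxcl14, which was not tested, was at 3.30, 1.06, 2.48 and 5.61 CPM in bulk tumor, below tumor PMN-MDSC and overlapping tumor M-MDSC. Cxcl9 stood at 12, 39.0, 55.3 and 117 CPM and overlapped both cell types (-1.18 ± 0.56, edgeR adjusted p = 0.091, or 0.0090 without bulk library 4, 0.034 in a fit over all groups and 0.032 in DESeq2, and -0.36 ± 0.54, edgeR adjusted p = 0.56). Cxcl10 and Cxcl16, which met the count minimum in bulk tumor as well, were called lower than in each cell type, at backgrounds of 33.3% and 31%. Cxcl1, Cxcl2, Cxcl3 and Pf4 met it through the sorted libraries only. The immediate early and heat shock list was at 219.8 to 250.3 CPM in bulk tumor and at 9776 to 13500.0 CPM in untreated tumor MDSC, where cells had been dissociated and sorted. Neutrophil markers were at 6.48 to 26.8 CPM and macrophage markers at 816 to 1428 CPM in bulk tumor. Tumor epithelium markers were at 4029 to 5933 CPM in bulk tumor against 17 to 620 CPM in untreated tumor MDSC, and fibroblast markers at 863 to 1120 against 1.26 to 50.4 CPM. Of the 13 lists, 9 did not overlap between bulk tumor and PMN-MDSC and 10 between bulk tumor and M-MDSC. The part of these lists in the differences was not tested.

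Across the 30 MDSC libraries, log2(CPM + 1) of Cxcl1 resembled that of Nr4a3 most (Pearson r = 0.98), followed by Lsmem1 and Il1a, among 8536 genes. The nearest genes were Nfkbiz and Egr1 for Cxcl2 (0.97 each), Hilpda for Cxcl3 (0.97), Cxcl16 for Cxcl9 (0.96), C3ar1 for Cxcl16 (0.97), Ccl8 for Pf4 (0.985) and Ikbke for Cxcl10 (0.91). Between members, Cxcl1 and Cxcl2 reached 0.96 and Cxcl2 and Cxcl10 0.45, the lowest pair. These values describe libraries that share the division into spleen and tumor and are not independent observations.

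Of the 8 receptors listed, at most 2 reached the count minimum in any comparison, Cxcr2 and Cxcr4. Cxcr4, the receptor of Cxcl12, was the 1 receptor called under treatment, in tumor M-MDSC (1.24 ± 0.24, edgeR adjusted p = 0.031). Cxcr2, the receptor of Cxcl1, Cxcl2 and Cxcl3, was at 926, 1728, 1008 and 1214 CPM in untreated spleen PMN-MDSC and 90.4, 304, 219.8 and 289 CPM in untreated tumor PMN-MDSC (log2 difference -2.59 ± 0.40, edgeR adjusted p = 3.3e-04), where these ligands were higher. The 10 neutrophil markers, which include Cxcr2, summed to 22674 to 41100 CPM in the first group and 1069 to 4521 CPM in the second. The part of this list in the difference of Cxcr2 was not tested. Cxcr3, the receptor of Cxcl9 and Cxcl10, had group means of 0.336 to 2.22 CPM. Of 12 genes that process these ligands or degrade their mRNA, 6 rose and 3 fell from spleen to tumor in untreated PMN-MDSC among 10 tested, including Zfp36, which promotes decay of such transcripts (2.05 ± 0.24), where 29.4% of all genes rose and 29.7% fell. None of them was called in treated against untreated tumor PMN-MDSC or M-MDSC (0 of 9 and 0 of 11 tested, at backgrounds of 3.36% and 2.88%). With treatment in spleen PMN-MDSC, 2 rose and 1 fell among 10 tested (6.1% of all genes rose and 5.52% fell). In spleen M-MDSC 1 rose and 1 fell among 11 tested (10.7% and 8.96%).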

How the data were processed

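The deposited table holds raw counts of fragments per gene, which the authors made by mapping reads to mm10 (GRCm38) with ContextMap and BWA and by strand-specific counting with featureCounts on Gencode annotations (Subread 1.4.6-p3, from the submitters' processing notes). Libraries were amplified by PCR from rRNA-depleted total RNA and no molecular identifiers are named, so counting intervals cover counting error only. Columns were assigned to groups by the cell type, organ and treatment in their names; 1 of 35 libraries, a tumor M-MDSC of a treated mouse with 10 counts, was left out. The titles name a separate mouse for each library of a group. Symbols, positions and summed exon lengths over all isoforms came from GENCODE M21. CPM and FPKM were computed here from the deposited counts.

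Comparisons used edgeR 4.0.16 in R 4.3.3: TMM factors, robust dispersions and the two-sided quasi-likelihood F-test on the libraries compared, for genes whose counts averaged 25 or more, with Benjamini-Hochberg adjustment over all genes tested. A call is an adjusted p under 0.05. Comparisons that share a group are not independent. The alternatives were DESeq2 1.42.0, RLE factors, no count filter, a fit over all groups, the rule of the study (adjusted p under 0.001 and at least 2-fold), and each library left out in turn. TMM-scaled CPM for the overlap of libraries was added after the data had been seen. The factors of this scaling were computed over all 34 libraries without the count filter, unlike those of the tests. The code was tested on simulated counts. The genes named are all 9 ligands, up to 3 genes of smallest adjusted p for each list and comparison, and the 3 genes most like each ligand; marker genes, Cxcl5, Cxcl11 and single receptors were named after their values were seen. The 9 genes and the lists were chosen with earlier results of these data known. Protein sequences were not used here.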

Additional observations from a re-analysis of the deposited data

Results flagged for a closer look

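The interaction of organ and treatment for Cxcl10 was called in edgeR, fitted for each cell type. In PMN-MDSC the effect in tumor minus that in spleen was -3.46 on the log2 scale (SE 0.64, edgeR adjusted p = 0.011). Treated spleen libraries had higher values there and tumor libraries overlapped. This difference rests on 33 counts over 4 untreated spleen libraries, under the count minimum, so that its call is given no weight. In M-MDSC the difference was -4.08 (SE 0.74, edgeR adjusted p = 0.030). Its call was lost on leaving out any of 6 of the 15 libraries. Neither passed the rule of the study. None of 38 sets of libraries of 1 gene in 1 group of 4 held a library that stood apart by Dixon's criterion, which by chance marks about 1 set in 20.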

How the results depend on the processing

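No paired analysis was possible because the columns of the table carry a running number and name no mouse, and the order of columns was not used to assign mice. The cause of the changes below was not tested. Counts are of the 9 genes called. With DESeq2 in place of edgeR, treatment gave 2 calls in spleen M-MDSC (1 in edgeR) and 3 in tumor M-MDSC (0), and PMN-MDSC against M-MDSC gave 2 in untreated spleen (1) and 2 in treated tumor (0). Without the count filter, treatment gave 3 in tumor PMN-MDSC (1) and 5 in tumor M-MDSC (0), PMN-MDSC against M-MDSC gave 4 in untreated spleen (1), 5 in untreated tumor (3) and 1 in treated tumor (0), and the difference of treatment effects gave 4 in M-MDSC (1). In a fit over all groups, treatment gave 2 in tumor PMN-MDSC and 4 in tumor M-MDSC, and PMN-MDSC against M-MDSC gave 1 in untreated and 2 in treated tumor. Under the rule of the study (adjusted p under 0.001 and 2-fold), 0 remained for treatment in spleen PMN-MDSC and tumor PMN-MDSC, for tumor against spleen in treated M-MDSC, for PMN-MDSC against M-MDSC in the spleen and untreated tumor, and for both differences of treatment effects. Leaving out 1 library gave 1 to 2 calls for treatment in spleen M-MDSC, 0 to 1 in tumor PMN-MDSC, 0 to 2 in tumor M-MDSC, 3 to 5 for tumor against spleen in treated M-MDSC, 0 to 2 for PMN-MDSC against M-MDSC in untreated spleen and 0 to 1 for the difference of treatment effects in M-MDSC. Log2 values that changed sign when 1 library was left out were those of treatment for Cxcl16 in spleen M-MDSC (-0.11 to 0.65), for Cxcl2 (-0.49 to 0.26), Cxcl10 (-0.051 to 0.54) and Cxcl16 (-0.086 to 0.33) in tumor PMN-MDSC and for Cxcl10 in tumor M-MDSC (-0.32 to 0.66), those of PMN-MDSC against M-MDSC in treated tumor for Cxcl9 (-0.45 to 0.57), Cxcl10 (-0.77 to 0.23) and Cxcl16 (-0.67 to 0.68), that of bulk tumor against M-MDSC for Cxcl9 (-0.88 to 0.10), and the difference of treatment effects for Cxcl1 (-2.07 to 0.78) and Pf4 (-2.31 to 2.24) in PMN-MDSC and for Cxcl9 (-0.19 to 0.68) and Pf4 (-1.32 to 1.13) in M-MDSC. None of these had passed the threshold. The value of Cxcl9 for PMN-MDSC against M-MDSC in treated tumor, -0.02, became 0.0090 with DESeq2, 0.0086 with RLE factors and 0.020 in the fit over all groups. Low counts set the limit for Ppbp (at most 10 in a library), for Cxcl1, Cxcl3, Cxcl14 and Pf4 in spleen and for Cxcl2 in untreated spleen M-MDSC.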

Other observations

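Among the CXC ligands outside the 9 genes, Cxcl13, which attracts B cells through Cxcr5, had higher values in treated tumors. In tumor PMN-MDSC it went from 1.82, 1.63, 6.39 and 4.27 CPM to 29.8, 35.2, 26.9 and 29.3 CPM. In tumor M-MDSC it had no count in 4 untreated libraries and 6.74, 57.6 and 43.5 CPM in treated ones, a mean at least 92.3-fold higher set against 3 counts over the untreated group, or 64.5-fold without treated library 2. In both cell types it met the count minimum through the treated libraries only, so that its tests are given no weight. The 5 other genes of this list of 6 CXC ligands did not meet the minimum in these comparisons. Spleen MDSC held at most 2.76 CPM of it. Cxcl5, another ligand of Cxcr2, was at 18.9, 31.6, 18.8 and 18.8 CPM in bulk tumor, had no count in 15 spleen libraries and at most 6.50 CPM in tumor MDSC. Cxcl11, a ligand of Cxcr3 that was not tested, was at 2.76, 11.4, 7.76 and 1.33 CPM in spleen M-MDSC of treated mice and 1.05, 0, 0.414 and 0 CPM in those of untreated mice.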
